A study of Saccharomyces cerevisiae with 34 samples.

Results

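The libraries described here are those of kin28as budding yeast treated with the inhibitor 1-NAPP-1 or with its solvent DMSO, in nascent and in total RNA. They were chosen by their labelled genotype and treatment, and they number 4 of the 34 libraries of the series. The 4 groups were nascent kin28as 1-NAPP-1, nascent kin28as DMSO, total kin28as 1-NAPP-1 and total kin28as DMSO, with 1 library in each. All came from Saccharomyces cerevisiae strain BY4741 carrying the kin28as allele, grown at mid-log phase in dextrose medium lacking histidine, and given 2 µM inhibitor or the same solvent for 1 h. In the last 6 min all cultures also received 4-thiouracil (4tU) at 5 mM, which new transcripts take up in place of uracil. Nascent RNA was the 4tU RNA recovered by biotin and streptavidin, and total RNA was sequenced without that step. As an external scale, Schizosaccharomyces pombe cells that had also been given 4tU were mixed in after the treatment, ahead of lysis, 1 cell to 6 of S. cerevisiae. The labels do not say how the kin28as allele was introduced, how many clones were used, or whether a nascent and a total library came from the same culture. The comparison sets were WT and kin28is BY4741 cells of the same 2 µM set, again with 1 library for 1-NAPP-1 and 1 for DMSO in each fraction. Where 16 nascent or 12 total libraries of WT and kin28is cells are cited, they come from this set and a 5 µM set. They include libraries given CMK, another inhibitor, besides those with 1-NAPP-1 or DMSO. With 1 library a side there was no replicate check, no p-value was computed, and every statement below describes these libraries.

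Kin28 is the kinase of the general transcription factor TFIIH and early in transcription adds phosphates to the long tail of RNA polymerase II, its C-terminal domain (CTD). That phosphorylation helps to recruit the mRNA capping machinery and to release the polymerase from the initiation complex. An analog-sensitive kinase has an enlarged ATP pocket that accepts bulky inhibitors such as 1-NAPP-1, which binds reversibly.

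Depth over both yeasts was 4510410 reads for nascent kin28as 1-NAPP-1, 12532376 for nascent kin28as DMSO, 2602949 for total kin28as 1-NAPP-1 and 5374047 for total kin28as DMSO. Gene levels are given per 1000000 reads assigned to S. cerevisiae (CPM). KIN28 (YDL108W, chrIV:267698-268699, + strand) was read in every library. Counts per gene do not tell an altered copy from an unaltered one, so its level does not check the genotype. KIN28 had 82.8 CPM with 1-NAPP-1 and 64.3 CPM with DMSO in nascent RNA, and 69.4 CPM with 1-NAPP-1 and 44.6 CPM with DMSO in total RNA. Of the loci that BY4741 lacks, MET17 had 0 reads in all 4 libraries, and URA3 and LEU2 stayed at or under 13 reads. HIS3, which cells need in this medium, had 42.1 CPM with 1-NAPP-1 and 46.8 CPM with DMSO in nascent RNA.

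The change of a gene is the log2 ratio of its share of S. cerevisiae reads, 1-NAPP-1 over DMSO, minus that of the median S. cerevisiae gene. It covers genes with a mean of at least 20 reads over the pair of libraries, and a gene is called higher or lower where the change is at least 2-fold. Because of the centring, the median over all genes is 0 in every comparison below. Without the centring all changes would lie 0.11 higher on the log2 scale in nascent RNA and 0.39 higher in total RNA. Intervals in square brackets are exact 95% Clopper-Pearson intervals of the log2 change and cover counting error only.

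The promoters shown are those of genes lower in both fractions, AAH1, HPT1 and ADE17 of purine metabolism, SAM1 of methionine metabolism and NSR1 of ribosome assembly, and of SPO24, AIM33 and SSA3, which were higher in both. They were chosen after the values and matches were seen, from 12 windows of which 8 held a match and 4 did not (AIM33, SSA3, SPL2 and UTP23). They are the 150 bases from 250 to 101 before the start codon in the RefSeq R64 assembly, which is the sacCer3 sequence, written 5′ to 3′ on the strand of the gene. Capitals mark matches to 4 motifs, each searched on both strands. The PAC element of ribosome assembly genes was searched as GATGAG. The core site of the activators Gcn4 and Bas1 was searched as TGACTC. The stress response element (STRE), which Msn2 and Msn4 bind, was searched as CCCCT. The promoter element called TATA was searched as TATAAA. Each match is a description of the letters, not a shown binding site. The windows are chrXIV:359346-359495 (+) for AAH1, chrIV:1269818-1269967 (+) for HPT1, chrXIII:509381-509530 (-) for ADE17, chrXII:515012-515161 (+) for SAM1, chrVII:807757-807906 (-) for NSR1, chrXVI:645700-645849 (+) for SPO24, chrXIII:95470-95619 (-) for AIM33 and chrII:86549-86698 (-) for SSA3.
AAH1: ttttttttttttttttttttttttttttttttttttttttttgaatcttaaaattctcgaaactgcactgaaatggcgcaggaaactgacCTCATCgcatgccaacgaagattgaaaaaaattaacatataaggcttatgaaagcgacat
HPT1: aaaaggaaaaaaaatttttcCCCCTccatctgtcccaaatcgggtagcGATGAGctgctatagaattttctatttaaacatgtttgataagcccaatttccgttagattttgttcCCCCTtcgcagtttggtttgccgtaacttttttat
ADE17: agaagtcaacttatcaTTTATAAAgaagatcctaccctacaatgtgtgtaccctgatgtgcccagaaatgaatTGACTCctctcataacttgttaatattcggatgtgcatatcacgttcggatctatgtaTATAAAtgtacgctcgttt
SAM1: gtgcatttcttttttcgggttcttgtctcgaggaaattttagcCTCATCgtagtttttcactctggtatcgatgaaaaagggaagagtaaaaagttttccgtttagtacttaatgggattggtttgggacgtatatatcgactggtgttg
NSR1: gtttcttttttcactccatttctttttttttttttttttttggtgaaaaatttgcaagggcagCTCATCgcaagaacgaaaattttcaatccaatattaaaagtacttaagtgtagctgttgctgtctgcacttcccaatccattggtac
SPO24: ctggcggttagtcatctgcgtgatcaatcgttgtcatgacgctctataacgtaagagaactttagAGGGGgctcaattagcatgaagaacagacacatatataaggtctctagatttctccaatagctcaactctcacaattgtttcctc
AIM33: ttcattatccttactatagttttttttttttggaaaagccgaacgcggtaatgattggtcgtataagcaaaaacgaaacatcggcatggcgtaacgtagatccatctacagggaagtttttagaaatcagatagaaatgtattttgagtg
SSA3: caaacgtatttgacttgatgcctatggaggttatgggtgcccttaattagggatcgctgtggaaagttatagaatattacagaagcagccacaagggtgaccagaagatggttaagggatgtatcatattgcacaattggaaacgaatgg
AAH1, SAM1 and NSR1 hold the reverse complement of GATGAG, and HPT1 holds GATGAG itself with CCCCT at 2 places. ADE17 holds TGACTC and TATAAA, including 1 pair of overlapping TATA matches, and SPO24 holds CCCCT as its reverse complement. AIM33 and SSA3 hold none of the 4 motifs in these windows.

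Nascent RNA of S. cerevisiae, scaled to S. pombe, was 4.16-fold lower in kin28as cells with 1-NAPP-1 than with DMSO. The libraries held 6.37 S. cerevisiae reads per S. pombe read with 1-NAPP-1 and 26.5 with DMSO, a log2 difference of -2.06. In total RNA the ratios were 3.05 with 1-NAPP-1 and 3.66 with DMSO, a 1.20-fold lower value. The nascent ratio was thus lower by far more than the total one, in the single pair of libraries for each. In bulk libraries, fewer S. cerevisiae cells in the mix and less labelled RNA per cell cannot be told apart.

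The same ratios were also lower in WT cells, in which the kinase has no engineered pocket. WT nascent libraries had 12.8 S. cerevisiae reads per S. pombe read with 1-NAPP-1 and 44.7 with DMSO, a 3.50-fold lower value. In kin28is cells they had 4.71 with 1-NAPP-1 and 32.2 with DMSO, a 6.83-fold lower value. The kin28as value therefore lay between those of WT and kin28is, and closer to WT on the log2 scale (-2.06 in kin28as, -2.77 in kin28is, -1.81 in WT). In total RNA the ratio was 1.16-fold lower in WT cells and 1.04-fold lower in kin28is cells. In the 5 µM set, which has no kin28as library, the WT nascent ratio was 4.05 with 1-NAPP-1 and 3.64 with DMSO, so the direction seen in WT at 2 µM was not seen there. The kin28is ratio was likewise not lower in every pair of that set, with 2.04 with 1-NAPP-1 and 1.21 with DMSO in replicate 2, and 1.31 with 1-NAPP-1 and 1.72 with DMSO in replicate 3. The sets also differed in level, since nascent ratios with 1-NAPP-1 or DMSO ran from 1.21 to 4.05 in the 5 µM set and from 4.71 to 44.7 in the WT and kin28is libraries of the 2 µM set. A WT DMSO library without 4tU, from the 5 µM set, gave a nascent ratio of 0.144. That is 3.94% of the ratio of the WT DMSO library of its own set, and 2.25% of the kin28as 1-NAPP-1 ratio and 0.542% of the kin28as DMSO ratio of the other set.

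**Figure D1:**
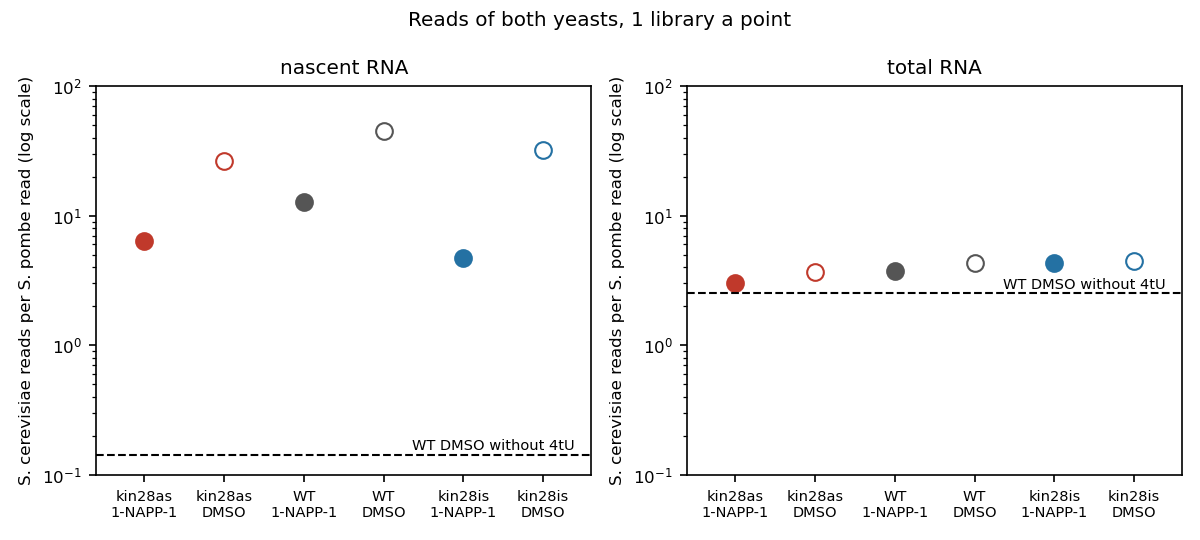
S. cerevisiae reads per S. pombe read (log axis) in the 12 libraries of the 2 µM set with 1-NAPP-1 (filled) or DMSO (open), 1 point per library. Nascent RNA is on the left and total RNA on the right. Nascent ratios were lower with 1-NAPP-1 in all 3 strains (6.37 against 26.5 in kin28as cells), while total ratios lay between 3.05 and 4.48. The dashed line is the WT DMSO library without 4tU, which belongs to the 5 µM set, whose nascent ratios with 1-NAPP-1 or DMSO were lower (1.21 to 4.05).

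Scaled to S. pombe, nearly all single genes shared the lower nascent level. In nascent RNA of kin28as cells 4934 of 5094 genes (96.9%) were at least 2-fold lower with 1-NAPP-1 than with DMSO. None (0%) were at least 2-fold higher, and the value of the median gene was lower by 3.84-fold. In WT cells 4887 of 5131 genes (95.2%) were likewise at least 2-fold lower, with the median gene 3.52-fold lower. In kin28is cells 5057 of 5095 (99.3%) were, with the median gene 6.96-fold lower. In total RNA of kin28as cells 165 of 5150 genes (3.2%) were at least 2-fold lower and 306 (5.94%) at least 2-fold higher. The median gene of total RNA was 0.13 higher on the log2 scale, whereas the summed reads were 0.26 lower, so the sign for total RNA depends on whether summed reads or the median gene set the value.

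Relative to the median gene, 125 of 5094 genes (2.45%) were at least 2-fold higher and 206 (4.04%) at least 2-fold lower in nascent RNA of kin28as cells. In total RNA 226 of 5150 genes (4.39%) were higher and 257 (4.99%) lower. The S. pombe genes of the same libraries, whose cells were added after the treatment, passed 2-fold in 0.528% of 4167 genes in nascent RNA and 1.09% of 4485 genes in total RNA. With the same centring, among genes with a mean of at least 100 reads, 95 S. cerevisiae genes were higher and 178 lower of 4853 in nascent RNA, against 0 of 1600 S. pombe genes in either direction. Changes in kin28as cells had an SD over genes of 0.55 in nascent and 0.59 in total RNA, against 0.30 and 0.32 for S. pombe genes of the same libraries. In WT cells S. cerevisiae genes spread no wider than S. pombe genes (SD 0.39 against 0.43 in nascent RNA, 0.25 against 0.29 in total RNA).

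**Figure D2:**
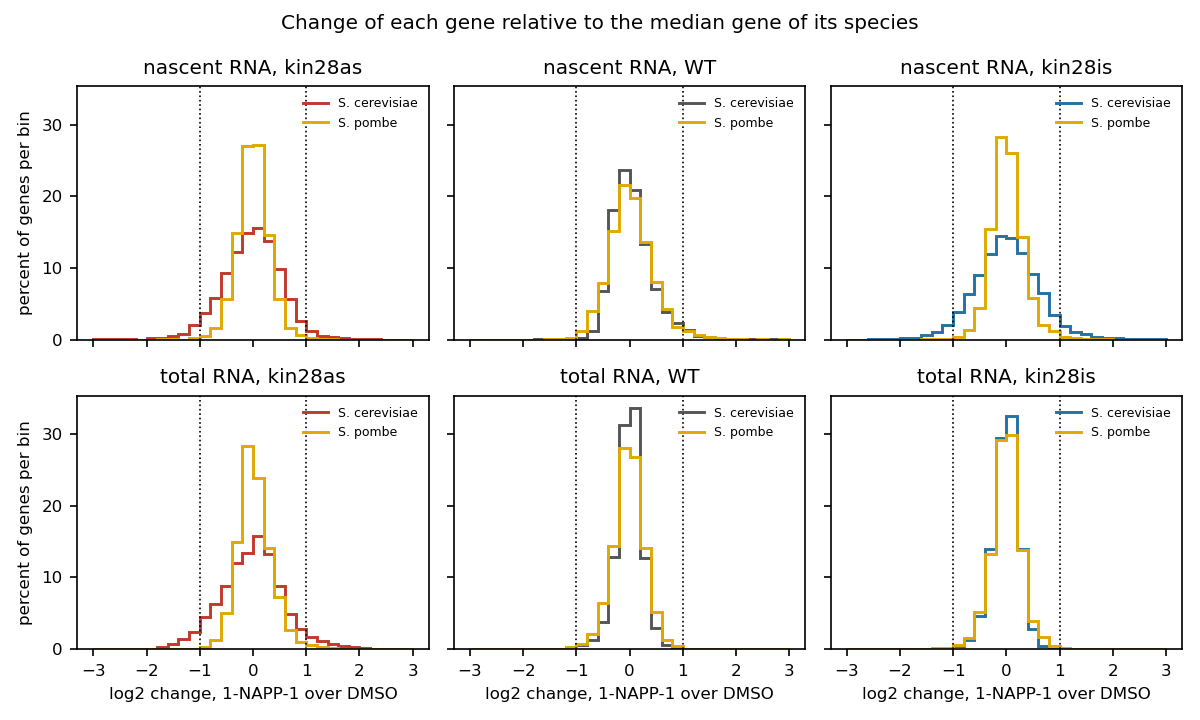
Distribution over genes of the log2 change with 1-NAPP-1 relative to the median gene of each species, in bins of 0.2, with S. cerevisiae in the strain's colour and S. pombe in yellow. Changes past the last bins are counted in them, and dotted lines mark 2-fold. S. cerevisiae genes spread wider than S. pombe genes in kin28as cells in both fractions (SD 0.55 against 0.30 and 0.59 against 0.32) and in kin28is cells in nascent RNA (0.63 against 0.31).

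A yardstick for these sizes comes from replicate groups of WT and kin28is cells with DMSO, 1-NAPP-1 or CMK. Libraries within these groups differ in dose as well as in replicate. The pooled SD within groups of a relative log2 level had a median over genes of 0.43 in nascent RNA (16 libraries, 10 degrees of freedom). It was 0.27 in total RNA (12 libraries, 6 degrees of freedom). Of the kin28as genes past 2-fold, 47 of 331 in nascent RNA and 215 of 483 in total RNA differed by more than 2 SDs of a difference between libraries on that scale.

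Purine genes were lower as a group in nascent RNA of kin28as cells. Of 21 measured genes for purine synthesis and salvage, 6 (28.6%, against 4.04% of all genes) were at least 2-fold lower and 0 higher. Of the 21 genes 19 had a change below 0 (median -0.72). Together they took 0.368% of nascent S. cerevisiae reads with 1-NAPP-1 and 0.476% with DMSO. Both values lay inside the 0.327% to 0.579% of 16 nascent libraries of WT and kin28is cells. Total RNA gave 0.549% with 1-NAPP-1 and 0.649% with DMSO, both inside the 0.500% to 0.768% of 12 total libraries. ADE17 (YMR120C, chrXIII:507502-509280, - strand), which encodes an enzyme of the last steps of IMP synthesis, had 12.1 CPM with 1-NAPP-1 and 95.1 CPM with DMSO in nascent RNA, a change of -3.08 [-3.55 to -2.67]. That change was within 2 SDs of a difference between replicate libraries of the other strains (3.65). AAH1 (YNL141W, chrXIV:359596-360639, + strand), the adenine deaminase, had 22.6 CPM with 1-NAPP-1 and 165 CPM with DMSO, a change of -2.98 [-3.31 to -2.68]. The other members past 2-fold were HPT1 for hypoxanthine-guanine salvage (-1.41), GCV3 (-1.39) and SHM2 (-1.23) of glycine and one-carbon metabolism, and MTD1 (-1.19), which also supplies one-carbon units. ADE16, the second gene for the ADE17 reaction, had a change of -0.16, and ADE2 one of 0.09. In total RNA the list had a median of -0.76, with 8 of 21 genes lower (38.1%, against 4.99% of all genes) and 0 higher. ADE17 had 97.0 CPM with 1-NAPP-1 and 236 CPM with DMSO there (-1.67), and AAH1 had 27.6 CPM with 1-NAPP-1 and 97.6 CPM with DMSO (-2.20). TGACTC was found in 12 of the 21 promoter windows (57.1%), against 4.41% of the windows of all 4984 genes measured in both fractions that had a window. That share depends on the members of the list and not on their changes. Among genes lower in both fractions 5 of 64 windows (7.81%) held it.

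Methionine and S-adenosylmethionine genes were lower in nascent RNA. Of 23 measured members of the sulfate and methionine list, 7 (30.4%, against 4.04% of all genes) were lower and 0 higher (median -0.59). SAM1 (YLR180W, chrXII:515262-516410, + strand), an S-adenosylmethionine synthetase, had 95.4 CPM with 1-NAPP-1 and 439 CPM with DMSO in nascent RNA, a change of -2.32 [-2.47 to -2.16]. In total RNA SAM1 had 141 CPM with 1-NAPP-1 and 518 CPM with DMSO, a change of -2.26 [-2.45 to -2.08]. Its paralog SAM2 had a nascent change of -1.54 and a total change of -0.97. MMP1, which carries S-methylmethionine into the cell, stood at -2.39 in nascent and -1.14 in total RNA. Members did not all share one direction, with MET3, of sulfate assimilation, at -0.65 and MET13, of the folate branch, at 0.96 in nascent RNA. In total RNA 4 of 23 members (17.4%, against 4.99% of all genes) were lower and 0 higher. The median there was -0.42, which becomes -0.03 without the centring.

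Iron genes did not share one direction. FET3, the ferroxidase of high-affinity iron uptake, had 92.1 CPM with 1-NAPP-1 and 469 CPM with DMSO in nascent RNA (-2.46 [-2.62 to -2.31]), and 170 CPM with 1-NAPP-1 and 397 CPM with DMSO in total RNA (-1.61). Its partner FTR1, the permease, had changes of -1.45 and -1.31 in nascent and total RNA. Of 17 Aft1 target genes 4 were lower and 2 higher in nascent RNA (23.5% and 11.8%, against 4.04% and 2.45% of all genes). On the high side were the cell wall protein gene FIT1 at 1.01 and ISU2, an iron-sulfur scaffold, at 1.02. Phosphate genes had a nascent median of -0.56, with 5 of 17 lower (29.4%) and 1 higher (5.88%). SPL2, which restrains low-affinity phosphate uptake, stood at -1.73 in nascent and -1.74 in total RNA, with an SD between replicate libraries of the other strains of 2.08 and 2.00 on the log2 scale.

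Glycolytic genes were lower as a group. All 16 measured members had a nascent change below 0, with a median of -0.72. Of the 16 members 5 (31.25%, against 4.04% of all genes) were at least 2-fold lower and 0 higher. Of the S. cerevisiae reads of nascent RNA they took 0.856% with 1-NAPP-1 and 1.41% with DMSO, against a median of 0.790% and a range of 0.464% to 1.44% in 16 nascent libraries of WT and kin28is cells. In total RNA they took 3.28% with 1-NAPP-1 and 4.08% with DMSO, against a median of 3.11% and a range of 1.97% to 3.65% in 12 libraries. In both fractions the 1-NAPP-1 library was thus near the median of the other strains and the DMSO library near or above their highest. PGK1, phosphoglycerate kinase, had 526 CPM with 1-NAPP-1 and 1187 CPM with DMSO in nascent RNA, a change of -1.29 [-1.36 to -1.22]. FBA1, the aldolase, stood at -1.24 and HXK2, the main hexokinase on glucose, at -1.15. In total RNA the median was -0.69, with 3 members lower (18.75%, against 4.99% of all genes) and 0 higher. HXK2 had 640 CPM with 1-NAPP-1 and 1261 CPM with DMSO there (-1.37). The TDH, ENO and PYK copies are close in sequence, so their single values are uncertain. Lipid genes showed the same sign in nascent RNA (median -0.53), with 3 of 17 (17.6%) lower and 0 higher. These were the fatty acid synthase gene FAS1 at -1.38, the inositol transporter gene ITR1 at -1.25 and the desaturase gene OLE1 at -1.13.

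Genes of mitosis were lower in nascent RNA and not past 2-fold in total RNA. Of 21 measured genes of the G2/M cluster around CLB2, 9 were lower and 1 higher in nascent RNA. These are 42.9% and 4.76%, against 4.04% and 2.45% of all genes. The median was -0.88, and 20 of the 21 had a change below 0. CLB1, a mitotic cyclin, had 10.0 CPM with 1-NAPP-1 and 29.6 CPM with DMSO (-1.67 [-2.20 to -1.20]). HOF1 of cytokinesis stood at -1.43, the kinase gene KIN3 at -1.39 and CLB2 at -1.12, while APC1 stood at 1.28. In total RNA 0 of 21 genes passed 2-fold in either direction, where 4.39% of all genes were higher and 4.99% lower. The total median was -0.30, which becomes 0.09 without the centring. Genes of the G1/S boundary leaned the other way, with a median of 0.38 in each fraction. MCD1, a cohesin subunit, had 299 CPM with 1-NAPP-1 and 116 CPM with DMSO in nascent RNA (1.25) and 226 CPM with 1-NAPP-1 and 81.0 CPM with DMSO in total RNA (1.09). In nascent RNA 2 of 33 G1/S genes (6.06%, against 2.45% of all genes) were higher and 1 (3.03%, against 4.04%) lower. In total RNA 2 (6.06%, against 4.39% of all genes) were higher and 0 lower.

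Genes for making ribosomes had medians below 0 in both fractions, with the lower one in total RNA for the ribosomal proteins themselves. Of 132 measured cytosolic ribosomal protein genes, 8 were lower and 2 higher in nascent RNA (median -0.50). The 8 are 6.06% of the list, near the 4.04% of all genes, while 114 of the 132 had a change below 0. In total RNA 67 of 131 (51.1%, against 4.99% of all genes) were lower and 0 higher, with a median of -1.0 and 127 below 0. RPS7B had 279 CPM with 1-NAPP-1 and 778 CPM with DMSO in total RNA (-1.87 [-2.00 to -1.74]), and RPL35B had 301 CPM with 1-NAPP-1 and 890 CPM with DMSO (-1.95). RPL18B was among the genes lower in both, at -1.55 in nascent and -2.38 in total RNA. The genes higher in nascent RNA were RPL37A (1.33) and RPS30B (1.30). Most ribosomal protein genes exist as near-identical pairs, so single values are uncertain while the list as a whole is less so. Together they took 10.5% of the S. cerevisiae reads of the 1-NAPP-1 library and 16.7% of those of the DMSO library in total RNA, against 10.7% to 17.0% in 12 total libraries of WT and kin28is cells. Both ends of that range were kin28is CMK libraries. In the libraries of those strains with DMSO or 1-NAPP-1 the range was 11.9% to 15.1%, and both kin28as values lay outside it. In nascent RNA ribosomal protein genes took 2.90% with 1-NAPP-1 and 3.96% with DMSO, both inside the 2.41% to 7.73% (median 3.85%) of 16 nascent libraries of WT and kin28is cells. The highest of these was a kin28is CMK library, and the highest with DMSO or 1-NAPP-1 was 4.41%.

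The factors that assemble ribosomes were lower to a like degree in both fractions. Of 81 ribosome biogenesis genes 8 were lower and 0 higher in nascent RNA (median -0.49), and 13 were lower and 0 higher in total RNA (median -0.54). NSR1, a nucleolar protein of rRNA processing, had 344 CPM with 1-NAPP-1 and 920 CPM with DMSO in nascent RNA (-1.53 [-1.61 to -1.45]), and 226 CPM with 1-NAPP-1 and 682 CPM with DMSO in total RNA (-1.98 [-2.13 to -1.84]). Subunit genes of RNA polymerases I and III had medians of -0.53 in nascent RNA and -0.57 in total RNA. Of 19 genes 1 was lower in nascent RNA (5.26%, near the 4.04% of all genes) and 4 in total RNA (21.1%, against 4.99% of all genes). RPC34 stood at -1.20 in nascent RNA and RPA135 at -1.15 in total RNA. The lower total median was not particular to polymerases I and III. The 12 subunit genes of RNA polymerase II had a total median of -0.57 (-0.18 without the centring), with 0 past 2-fold, and a nascent one of -0.16. GATGAG lay in 63.0% of the ribosome biogenesis windows, in 23.4% of the 64 windows of genes lower in both fractions and in 11.3% of all windows.

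Oxidative stress genes passed 2-fold mainly in total RNA, though not all leaned lower. Of 26 measured Yap1 target genes, 9 (34.6%, against 4.99% of all genes) were lower and 0 higher in total RNA (median -0.83). In nascent RNA 2 (7.69%, against 4.04% of all genes) were lower and 0 higher (median -0.29). The list took 1.57% of total S. cerevisiae reads with 1-NAPP-1 and 2.68% with DMSO. In 12 total libraries of WT and kin28is cells it took 0.808% to 2.66% (median 2.22%), so the DMSO library was just above their highest. The lowest of them were kin28is CMK libraries (0.808% and 0.948%). The lowest with DMSO or 1-NAPP-1 took 1.87%, above the kin28as 1-NAPP-1 library. GRE2, a reductase, had 1162 CPM with 1-NAPP-1 and 3010 CPM with DMSO in total RNA (-1.76 [-1.83 to -1.70]) and a nascent change of -0.82. SRX1, a sulfiredoxin, had the highest nascent change of the list, 0.89, and stood at -0.06 in total RNA. OSI1, which responds to oxidants, stood at -2.03 in total and -1.37 in nascent RNA. OYE2, an NADPH dehydrogenase that shares sequence with OYE3, stood at -1.68 in total and -0.97 in nascent RNA.

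Of 21 measured Msn2/4 targets of the general stress response, 3 (14.3%, against 2.45% of all genes) were higher and 0 lower in nascent RNA (median 0.18). In total RNA 2 (9.52%, against 4.39% of all genes) were higher and 0 lower (median 0.52). The list was not higher in kin28as cells alone. In WT nascent RNA 5 of the 21 were higher and 0 lower (median 0.53), where 2.63% of all genes were higher. In kin28is nascent RNA 1 was higher and 1 lower (median -0.35). In WT total RNA 0 were higher or lower (median 0.18). In kin28as cells YGP1, a secreted glycoprotein of nutrient-limited cells, had 195 CPM with 1-NAPP-1 and 41.9 CPM with DMSO in nascent RNA (2.10 [1.94 to 2.27]) and 105 CPM with 1-NAPP-1 and 34.6 CPM with DMSO in total RNA (1.21). Chaperone genes split, with SSA3, an inducible Hsp70, higher at 1.73 and AHA1 (-1.30) and HSC82 (-1.08), of the Hsp90 system, lower in nascent RNA. In all 1 of 23 chaperone genes (4.35%, against 2.45% of all genes) was higher and 3 (13.04%, against 4.04% of all genes) lower there. Of 38 genes for the TCA cycle and respiration 4 (10.5%, against 2.45% of all genes) were higher and 0 lower in nascent RNA. Among the higher ones were the citrate synthase genes CIT2 (1.72) and CIT1 (1.23) and the aconitase gene ACO1 (1.15). CIT1 was also higher in total RNA, with 496 CPM with 1-NAPP-1 and 185 CPM with DMSO (1.03).

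Few genes of the transcription apparatus passed 2-fold, and few of all genes did. Over all genes 2.45% were higher and 4.04% lower in nascent RNA, and 4.39% and 4.99% in total RNA. With lists this small, low counts do not set these genes apart from all genes. None of 10 genes for Kin28 and TFIIH passed 2-fold in either fraction, and their nascent changes ran from -0.33 to 0.42, with CCL1, the cyclin of Kin28, at 0.42. Of 11 genes for CTD kinases and phosphatases, SSN8, the cyclin of the Mediator kinase, was higher in nascent RNA, with 112 CPM with 1-NAPP-1 and 45.1 CPM with DMSO (1.20 [1.02 to 1.39]). None of 8 genes for mRNA capping and cap binding passed 2-fold, and STO1 of the nuclear cap-binding complex stood at -0.64 in nascent RNA. Among 12 RNA polymerase II subunit genes RPB8, a subunit shared by all 3 polymerases, was lower (-1.01 in nascent RNA). HRP1, an mRNA cleavage factor and the only 1 of 19 termination genes past 2-fold in nascent RNA, had 111 CPM with 1-NAPP-1 and 245 CPM with DMSO (-1.25), whereas in total RNA it had 342 CPM with 1-NAPP-1 and 200 CPM with DMSO (0.39). Of 33 mRNA decay genes 0 passed 2-fold in nascent RNA, with CAF130 of the Ccr4-Not complex at 0.97 and the helicase gene MTR4 at -0.87. Of 33 proteasome genes 0 passed it in either fraction.

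Histone genes did not share one direction. HHT1, for histone H3, had 53.9 CPM with 1-NAPP-1 and 418 CPM with DMSO in nascent RNA (-3.07), but its SD between replicate libraries of the other strains was 3.22. HTZ1, for the variant H2A.Z, had changes of -1.20 and -1.23 in nascent and total RNA, and HTB2 had 0.87 and -0.36. In all 2 of 10 histone genes (20%) were lower and 0 higher in each fraction, against 4.04% of all genes lower in nascent and 4.99% in total RNA. Histone copies are near-identical in sequence.

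The remaining lists had 0 to 2 members past 2-fold in each direction in nascent RNA, where 2.45% of all genes were higher and 4.04% lower. For Gcn4 targets of amino acid synthesis 2 of 42 were lower and 1 higher (median -0.28), with HIS1 at -1.13 and BAT2 at 1.13. Of 13 pyrimidine genes 1 was lower, URA1, with 430 CPM with 1-NAPP-1 and 947 CPM with DMSO (-1.25). For cell separation 2 of 20 (10%) were lower, and the glucanase-like gene SUN4 stood at -0.84 in nascent and -1.48 in total RNA. For hexose transport 2 of 9 (22.2%) were lower (HXT2 at -1.56, MTH1 at -1.28), for mating 1 of 14 was higher and 1 lower, for cell wall genes 1 of 21 was lower, and for drug resistance 1 of 15 was higher. None of 24 ergosterol, 13 unfolded protein response, 6 zinc and 65 mitochondrial ribosomal protein genes passed 2-fold there.

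**Figure D3:**
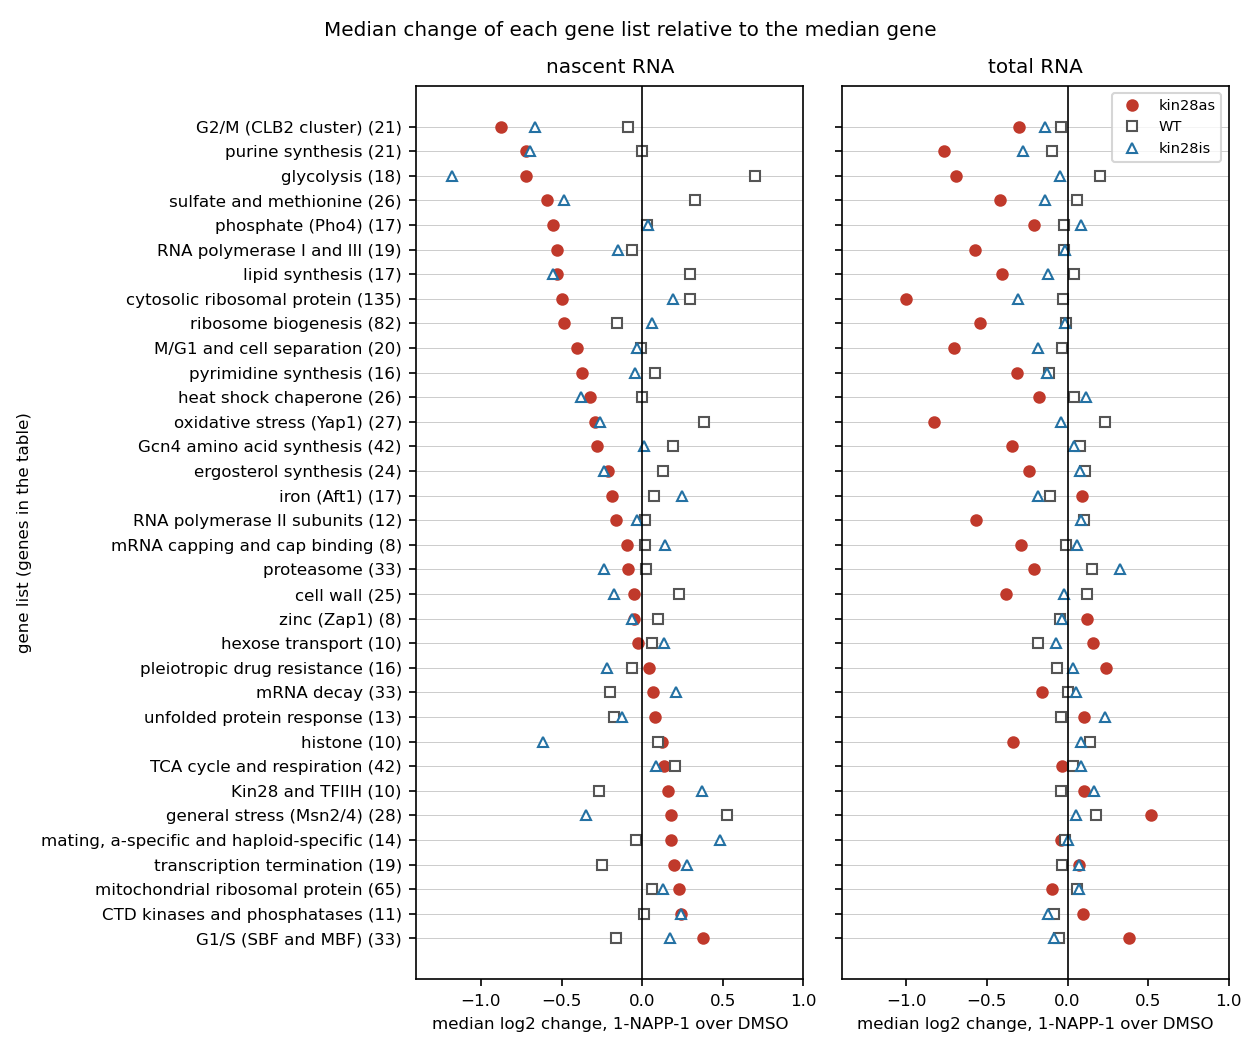
Median log2 change with 1-NAPP-1 of each gene list with at least 5 measured members, in nascent RNA (left) and total RNA (right), for kin28as (filled circles), WT (squares) and kin28is cells (triangles), 1 pair of libraries each. Lists run from the lowest kin28as nascent median at the top, G2/M at -0.88, to the highest at the bottom, G1/S at 0.38, and the lowest in total RNA is that of cytosolic ribosomal proteins at -1.0.

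Without the centring, 5 of 36 lists changed sign in nascent RNA, all with medians within 0.1 of 0 (capping, proteasome, hexose transport, zinc and cell wall). In total RNA 15 of 36 did, so for capping, decay, histone, chaperone, proteasome, respiration, Gcn4, phosphate, pyrimidine, ergosterol, G2/M, mating, cell wall, marker and mitochondrial ribosomal protein genes no direction is given in that fraction. The lists of ribosomal proteins, ribosome biogenesis, polymerases I and III, purines, glycolysis, methionine and Yap1 targets kept medians below 0 both ways. Without the centring the total median was -0.61 for ribosomal proteins, -0.15 for ribosome biogenesis and -0.19 for polymerases I and III. For methionine it was only -0.03, so no direction is given for that list in total RNA either.

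Changes in total RNA also went with the level and the length of the gene. In 5 equal bins of rising level, taken from DMSO libraries of the other strains, the median kin28as change in total RNA was 0.36, 0.15, 0.01, -0.12 and -0.45, and 182 of the 226 higher genes lay in the lowest bin. Without that bin 44 genes were higher and 243 lower in total RNA, against 64 higher and 139 lower in nascent RNA. Ribosomal protein genes are highly expressed and short, and the part of level and length in their lower values was not tested. In 5 bins of rising length the median was -0.29, -0.12, 0.00, 0.11 and 0.16 in total RNA and -0.13, -0.10, -0.00, 0.04 and 0.17 in nascent RNA, and WT cells showed the opposite order. In kin28is cells the nascent medians ran in the same order as in kin28as cells, at -0.11, -0.04, 0.00, 0.02 and 0.14. The 200 genes least read per length in WT libraries had 4.51 RPKM with 1-NAPP-1 and 1.37 RPKM with DMSO in total RNA of kin28as cells, with 0.908 to 12.2 RPKM in the other total libraries. In nascent RNA they had 0.666 RPKM with 1-NAPP-1 and 0.575 RPKM with DMSO. The part of this background in the higher genes of total RNA, such as PHM7 (1.79), GAP1 (1.79) and IDP2 (1.78), was not tested. Chromosome medians stayed between -0.08 and 0.10 in nascent RNA over the 16 chromosomes.

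The fractions went together across genes in kin28as cells. Over 5080 genes measured in both, the changes correlated with r = 0.63 (rho = 0.66), and 75.8% had the same sign. The S. pombe genes of the same libraries gave r = 0.04 over 4123 genes. Across the 5 bins of level r was 0.36 in the lowest and 0.61, 0.74, 0.78 and 0.74 in those above, and within the 5 bins of length it ran from 0.61 to 0.66. The points of these correlations are genes of the same 4 libraries, not replicates. In WT cells r was 0.30 over 5082 genes and in kin28is cells 0.24 over 5084.

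Of the 5080 genes, 42 (0.827%) were at least 2-fold higher and 66 (1.3%) at least 2-fold lower in both fractions. In the bin of lowest level lay 25 of the 42 higher and 6 of the 66 lower genes. Those 108 genes were 33.6% of the 125 higher and 32.5% of the 203 lower in nascent RNA, and 24.7% of the 170 higher and 25.7% of the 257 lower in total RNA. All 125 genes higher in nascent RNA had a change above 0 in total RNA, with a median of 0.86. Of the 257 genes lower in total RNA 252 had a nascent change below 0, with a median of -0.75. The sign was shared less often in the other directions. Of the 203 genes lower in nascent RNA 170 (83.7%) had a total change below 0. Of the 170 genes higher in total RNA 118 (69.4%) had a nascent change above 0, with a median of 0.50. Only 11 genes passed 2-fold in opposite directions. All 11 were lower in nascent and higher in total RNA, and all 11 lay in the bin of lowest level.

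**Figure D4:**
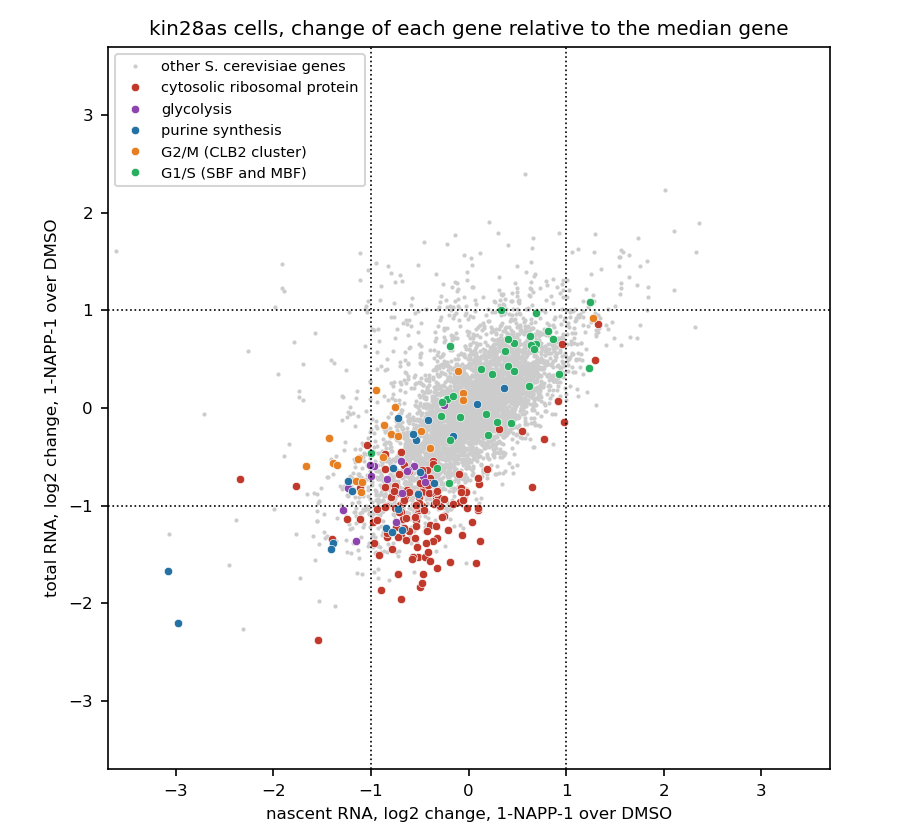
Change with 1-NAPP-1 in nascent RNA (horizontal axis) against total RNA (vertical axis) in kin28as cells, log2 relative to the median gene, 1 point per gene, with 5 gene lists coloured and dotted lines at 2-fold. Genes run along the diagonal (r = 0.63), ribosomal protein genes lie low on the total axis (median -1.0 against -0.50 in nascent RNA), and G2/M genes lie to the left (nascent median -0.88).

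The genes lower in both fractions with the largest smaller change and at least 50 reads were SAM1, AAH1, SPL2, ADE17, FET3, NHP6B, RPL18B and NSR1, of 65 that met the read minimum. NHP6B, an HMG-box chromatin protein, stood at -1.57 [-1.80 to -1.36] in nascent RNA and had 45.4 CPM with 1-NAPP-1 and 102 CPM with DMSO in total RNA (-1.56), and its gene overlaps YBR090C. The genes higher in both, of 28, were SPO24, AIM33, SSA3, ARR3, AGA1, BIO2, NCE103 and CRF1, which belong to no single pathway. On the yardstick of 2 SDs of a difference between replicate libraries of the other strains, 5 of these 16 genes differed by more in nascent RNA (SAM1, AAH1, FET3, SSA3 and BIO2) and 10 of 16 in total RNA. ADE17, SPO24, ARR3, NCE103, CRF1 and SPL2 were within it in both fractions, with nascent SDs of 1.29, 1.02, 1.22, 1.04, 1.39 and 2.08, so their narrow counting intervals understate the spread between libraries.

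SPO24 (YPR036W-A, chrXVI:645950-646153, + strand), a small protein associated with sporulation, had 1345 CPM with 1-NAPP-1 and 242 CPM with DMSO in nascent RNA, a change of 2.36 [2.29 to 2.43]. In total RNA it had 806 CPM with 1-NAPP-1 and 165 CPM with DMSO, a change of 1.90 [1.77 to 2.03]. SSA3 had 431 CPM with 1-NAPP-1 and 120 CPM with DMSO in nascent RNA (1.73 [1.63 to 1.84]) and 380 CPM with 1-NAPP-1 and 86.5 CPM with DMSO in total RNA (1.74 [1.56 to 1.93]). Both were thus high in the 1-NAPP-1 library of each fraction. BIO2, biotin synthase, had 176 CPM with 1-NAPP-1 and 55.7 CPM with DMSO in nascent RNA (1.55) and 166 CPM with 1-NAPP-1 and 43.4 CPM with DMSO in total RNA (1.54). NCE103, carbonic anhydrase, had 209 CPM with 1-NAPP-1 and 54.4 CPM with DMSO in nascent RNA (1.83) and 125 CPM with 1-NAPP-1 and 33.4 CPM with DMSO in total RNA (1.51). These too were high in both 1-NAPP-1 libraries. ARR3, which exports arsenite, had 159 CPM with 1-NAPP-1 and 29.1 CPM with DMSO in nascent RNA (2.33) and 83.7 CPM with 1-NAPP-1 and 21.1 CPM with DMSO in total RNA (1.60). AGA1, the anchor of a-agglutinin, AIM33 and CRF1, a corepressor of ribosomal protein genes, stood at 1.58, 2.10 and 1.55 in nascent and at 1.60, 1.82 and 1.46 in total RNA. Scaled to S. pombe the nascent values were near those of DMSO, at 0.42 for SPO24, -0.21 for SSA3, -0.39 for BIO2, -0.11 for NCE103 and 0.39 for ARR3 on the log2 scale. For the lower genes they were -4.26 for SAM1, -4.92 for AAH1, -5.02 for ADE17 and -4.40 for FET3. CCCCT lay in 22.5% of the 40 promoter windows of genes higher in both fractions and in 12.5% of all windows, and TATAAA in 30.0% against 27.4%.

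**Figure D5:**
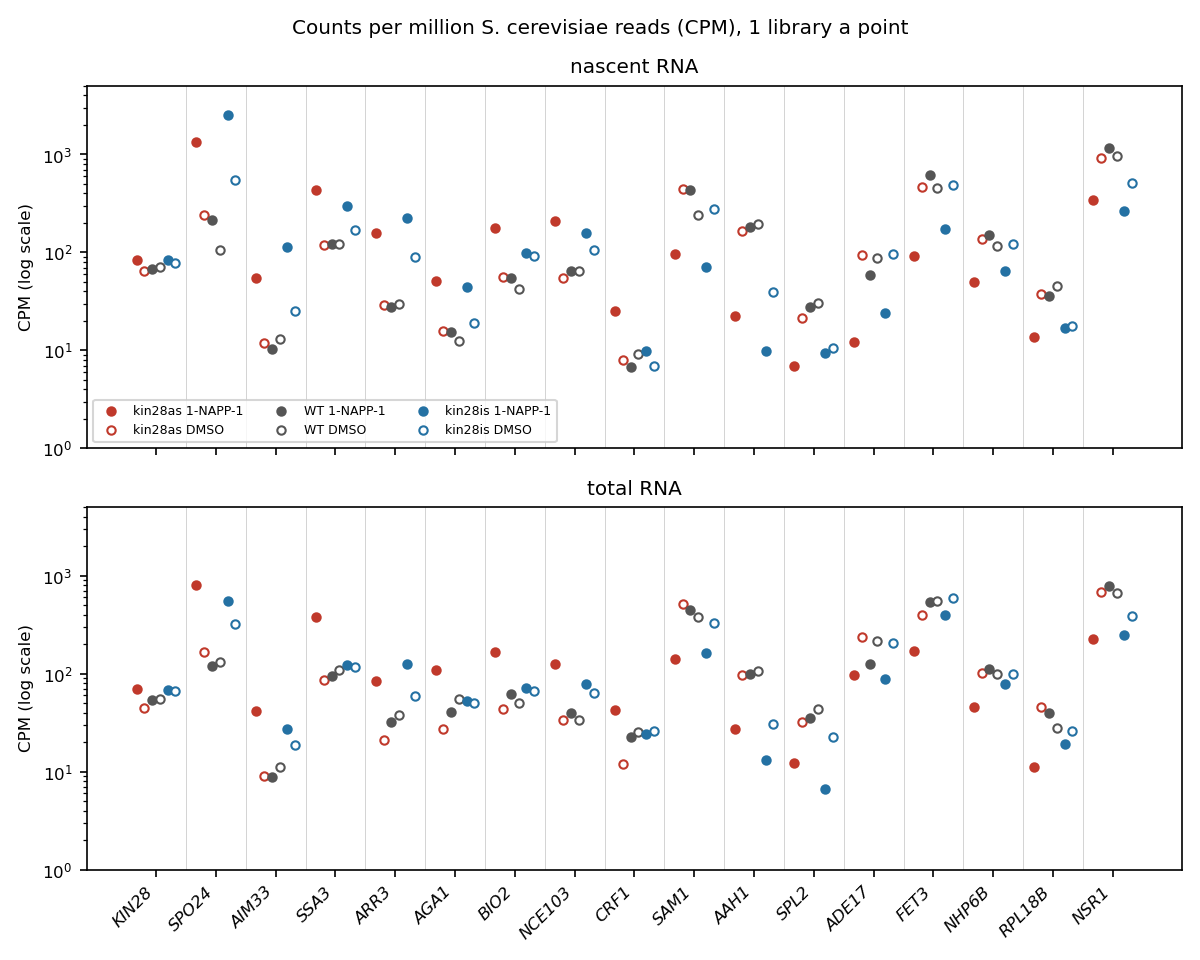
Levels in CPM (log axis) of KIN28 and of the 8 genes per direction with the largest changes shared by both fractions, in nascent (top) and total RNA (bottom), 1 point per library, with 1-NAPP-1 filled and DMSO open for kin28as (red), WT (grey) and kin28is (blue) cells. SAM1, for example, had 95.4 CPM with 1-NAPP-1 and 439 CPM with DMSO in nascent RNA of kin28as cells, and in nascent RNA AAH1, ADE17 and FET3 were likewise low with 1-NAPP-1 in kin28as and kin28is cells.

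Where the fractions parted, ribosomal protein genes were prominent on one side. The nascent change was at least 2-fold above the total change in 48 of 5080 genes (0.945%), of which 22 were among 131 ribosomal protein genes, and it was above it at all in 119 of those 131. It was at least 2-fold below the total change in 161 genes (3.17%), among them 3 of 21 G2/M genes, 4 of 23 methionine genes, 3 of 17 iron genes and 3 of 17 phosphate genes. Of 21 G2/M genes 2 had a nascent change above the total one. HRP1 was the 1 termination gene with a nascent change at least 2-fold below the total one.

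Few of these relative changes were seen in WT cells treated in the same way. In WT nascent RNA 135 of 5131 genes (2.63%) were at least 2-fold higher and 6 (0.117%) at least 2-fold lower, and in WT total RNA 0 of 5115 (0%) were higher and 14 (0.274%) lower. Changes of kin28as and WT cells correlated with r = -0.20 in nascent RNA (5093 genes) and -0.32 in total RNA (5110 genes), with no library in common. Of the 125 genes higher in nascent RNA of kin28as cells 5 were higher in WT cells, namely SPO24, YGP1, OM45, GPG1 and AGX1, and of the 206 lower genes only PHO89 was lower in WT. The kin28as change was at least 2-fold above the WT change in 251 of 5093 genes (4.93%) and at least 2-fold below it in 538 (10.6%) in nascent RNA. In total RNA it was above in 355 of 5110 (6.95%) and below in 364 (7.12%).

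The glycolytic list differed most in that comparison among those with at least 5 genes. Its nascent median was -0.72 in kin28as and 0.70 in WT cells, and 13 of 16 genes had a kin28as change at least 2-fold below the WT change. The same held for 11 of 23 methionine genes, 46 of 132 ribosomal protein genes and 9 of 21 G2/M genes. SAM1 had a WT nascent change of 0.84, with 431 CPM with 1-NAPP-1 and 241 CPM with DMSO, and FET3 one of 0.45. AAH1 and ADE17 had WT nascent changes of -0.08 and -0.57. In WT cells S. pombe genes also passed 2-fold more often in nascent RNA than in the kin28as pair (2.96% against 0.528%), and the part of this in the WT values was not tested. RPM2, the protein subunit of mitochondrial RNase P, stood at 1.57 in kin28as and -0.59 in WT nascent RNA.

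In kin28is cells, which carry another altered allele of the kinase gene, nascent changes resembled those of kin28as cells more than total ones did. In kin28is nascent RNA 241 of 5095 genes (4.73%) were higher and 221 (4.34%) lower, and in kin28is total RNA 1 of 5161 (0.0194%) was higher and 9 (0.174%) lower. Changes of the strains correlated with r = 0.59 over 5077 genes in nascent RNA and 0.29 over 5144 genes in total RNA. Of 124 genes higher in kin28as nascent RNA that were measured in both, 62 (50%) were higher in kin28is, and of 202 lower genes 66 (32.7%) were lower. In total RNA ARR3 was the 1 gene higher in both strains, and AAH1, ADE17, SAM1 and SPL2 were the 4 lower in both.

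The likeness differed between genes and lists. SAM1, AAH1, ADE17 and FET3 had kin28is nascent changes of -1.94, -1.97, -1.96 and -1.48. SPO24, AIM33 and ARR3 stood at 2.23, 2.21 and 1.35 there, but BIO2 stood at 0.12 and NCE103 at 0.59. The purine list had a median of -0.72 in kin28as and -0.70 in kin28is nascent RNA, and the G2/M list -0.88 and -0.67, whereas ribosomal protein genes stood at -0.50 in kin28as and 0.19 in kin28is. In total RNA the ribosomal protein median was -1.0 in kin28as, -0.31 in kin28is and -0.03 in WT cells, and that of Yap1 targets -0.83, -0.04 and 0.23. Differences between the strains were not tested, because each strain had 1 library a side at this dose.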

How the data were processed

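Raw read counts, 1 whole number for each gene and library of both yeasts, were used as the authors deposited them. Tools listed in the submitters' processing notes are HTSeq 0.6.0, STAR 2.3.0 and CASAVA 1.8.2, with sacCer3 as the build. Per the labels' protocols, libraries were ScriptSeq, read as 100 bp single ends. How reads were split between genomes, the S. pombe build and the use of strand are not given in the sources used here, so overlapping, antisense and paralogous genes are uncertain. Of 5390 S. cerevisiae features 5241 were matched by systematic name to RefSeq R64, the sequence of sacCer3, for symbols, positions and promoter windows. Gene positions are those of coding sequences.

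Computed here, in Python 3.11.15 with numpy 2.4.6, pandas 2.3.3 and scipy 1.17.1, were ratios of summed counts and log2 changes with a pseudocount of 0.5. Changes were per S. cerevisiae total, centred on the median gene, for genes with a mean of at least 20 counts; S. pombe genes were treated alike. Depth was 517887 to 15568445 reads over the 34 libraries. PCR copies are not independent molecules, so intervals cover counting error only. The steps were tested on simulated data. Alternatives used total-count scaling, edgeR 4.0.16 TMM factors, DESeq2 1.42.0 size factors, other pseudocounts and count minimums, and other forms of the species ratio.

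The named genes were KIN28, up to 8 per direction past 2-fold in both fractions ranked by the smaller change, up to 5 per direction in each fraction and in kin28as minus WT nascent change, and up to 3 members per list, always with a mean of at least 50 counts. The members, the lists and this rule were chosen with earlier results of these data known. Genes named because a count was small, or as other list members (such as APC1, RPL37A, RPS30B, GCV3, FIT1, MET13, ADE2, ADE16, GPG1 and AGX1), were chosen after their values were seen.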

Additional observations from a re-analysis of the deposited data

Results flagged for a closer look

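In nascent RNA, RPP1A, which encodes an acidic protein of the ribosomal stalk, was past 2-fold in opposite directions in kin28as and WT cells. It had 159 CPM with 1-NAPP-1 and 348 CPM with DMSO in kin28as cells (log2 change -1.25), against 420 CPM with 1-NAPP-1 and 84.8 CPM with DMSO in WT cells (2.32), so the kin28as change was lower by a log2 difference of -3.56. In total RNA its change was -1.14 in kin28as and 0.06 in WT cells.

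CAR2, ornithine transaminase of arginine breakdown, stood in the same way, with 13.9 CPM with 1-NAPP-1 and 38.6 CPM with DMSO in nascent RNA of kin28as cells (-1.58), against 33.8 CPM with 1-NAPP-1 and 9.06 CPM with DMSO in WT cells (1.90). The log2 difference was -3.48. In total RNA the change was -0.87 in kin28as and 0.41 in WT cells. The difference between strains was not tested for either gene, since each strain had 1 library a side. For both genes the WT DMSO library was the lowest of these 4 nascent libraries.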

How the results depend on the processing

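Leaving out a library was not possible, because each group had 1 library. No paired analysis was possible because no test was made with 1 library a side. The log2 species ratio of nascent RNA was -2.06 from summed reads, -1.94 from the median gene of each species and -2.00 without the 50 most-read genes of each. That of total RNA was -0.26, against 0.037 from the median genes and -0.20 without the 50 most-read genes, so its sign depends on the summary used. With total-count scaling, counts of genes past 2-fold became 190 higher in nascent RNA (125 with centring), and 607 higher and 57 lower in total RNA (226 and 257). TMM and DESeq2 factors gave counts within 1.5 times. Where the whole 95% counting interval had to lie past 2-fold, 55 genes were higher and 99 lower in nascent RNA, and 43 higher and 137 lower in total RNA. A minimum mean of 100 counts, with the centring redone on those genes, left 70 genes higher in total RNA, or 50 with the centring on all genes kept. Leaving out the lowest of 5 bins of gene level, an alternative added after the data were seen, gave 64 higher in nascent RNA and 44 in total RNA. The correlation between fractions, 0.63, was 0.74 at a minimum of 100 counts, 0.56 without a minimum and 0.74 without the lowest bin of level. The other counts, including the 108 genes shared by both fractions, stayed within 1.5 times under the alternatives run on them. With a pseudocount of 5 all 256 values of named genes lay within their counting intervals, and with total-count scaling 114 did and 142 did not, none with a called change that reversed.

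Depth limits the low end. The 1-NAPP-1 library of total RNA held 1959524 S. cerevisiae reads, and AIM33, at 41.8 CPM there, had a counting interval of 1.26 to 2.42 on the log2 scale.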
